A study of Homo sapiens with 4 samples.

Results

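The genes described here encode ubiquitin-conjugating enzymes (E2 enzymes, symbols beginning with UBE2) and ubiquitin-specific proteases (symbols beginning with USP and a digit). They were chosen by symbol, leaving out UBE2C and UBE2T, which gave 84 of the 18348 genes named on the arrays, 28 UBE2 and 56 USP genes, read by 130 of 47217 probes. The arrays were Illumina bead arrays, and the RNA came from H9, a widely used human embryonic stem cell line, grown in a serum-replacement medium with basic FGF. The groups were cells taken before gamma irradiation (0 h, n = 2) and cells taken 24 h after it (n = 2), with no radiation dose in the labels and a low dose in the series' title. All groups share 1 cell line, no unirradiated sample at 24 h was analysed here, and the labels do not say whether replicates were separate cultures, so the p-values speak of the spread among 4 arrays, which may be technical. The arrays share 1 slide, with positions on it that differed between the groups, so position, time in culture and irradiation cannot be told apart.

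Ubiquitin is activated by an E1 enzyme, passed to the active-site cysteine of an E2, and joined to a target protein with the help of an E3 ligase. E2 enzymes decide much of which chain is built, so that some mark proteins for the proteasome while others serve as scaffolds, for example at DNA breaks, and a few E2 enzymes carry ubiquitin-like proteins instead (NEDD8, ISG15, FAT10). USP enzymes are the largest family of deubiquitinases and take these marks off again. Members of both families act in the response to DNA damage and in the control of p53.

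Between 19705 and 20443 probes were detected on an array (detection p under 0.05, against negative control beads). The 99th percentile of the raw signal, divided by the median signal of probes not detected, lay between 82 and 83.1 before irradiation and between 60.4 and 69.7 after it, and its part in the results was not tested. All 9 pluripotency markers of the list that the arrays name were detected on all 4 arrays, and none passed the test in limma. POU5F1, at a log2 change of 0.22 ± 0.13 (SE), and NANOG, at 0.31 ± 0.13, were the 2 above 0, while the lowest were GDF3 at -0.94 ± 0.17 and DNMT3B at -0.72 ± 0.11 (limma adjusted p = 0.0598 and 0.051). The normalized signals of all probes of these markers, detected or not, were summed on the linear scale. The log2 of this sum was 16.01 to 16.04 at 0 h and 15.76 to 15.78 at 24 h, and its part in the results was not tested. Of 15 lineage markers 11 were not above background. Of 8 markers of fibroblasts and mesenchyme 4 were above background, all 4 with a log2 change above 0. COL1A1 among them rose by 1.05 ± 0.14 (limma adjusted p = 0.0498). THY1, the brightest of the 4, read 11.64 and 11.65 at 0 h and 11.92 and 11.98 at 24 h. It therefore weighs heavily in the sum that follows. Whether THY1 marks fibroblasts or mesenchyme in this culture was not tested. The log2 of the sum over the probes of the fibroblast and mesenchyme markers, taken in the same way, was 12.4 on both 0 h arrays. It was 12.9 on both 24 h arrays, and the part of such cells in the results below was not tested. In RNA from a whole culture, fewer cells of a type and less RNA per cell cannot be told apart.

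Most of the E2 and USP transcripts that could be measured were lower 24 h after irradiation than before it, by small amounts, and 1 of them passed the test across all genes. A gene was tested where a probe was detected on at least 2 of the 4 arrays, which held for 57 members, 21 UBE2 and 36 USP genes. Of these 57, 43 had a log2 change (24 h minus 0 h) below 0, against 5580 of all 11030 genes tested, of which 49.4% were above 0. UBE2Z was the member called at a Benjamini-Hochberg adjusted p under 0.05 in limma, and it fell. Called genes made up 2.28% of all genes tested, 1.35% higher and 0.925% lower, so 1 of 57 is near the background and is no result about the families. At an unadjusted p under 0.05, 19 members were lower and 3 higher, where all genes gave 15.3% lower and 15% higher. The 24 h arrays lay below both 0 h arrays for 33 members and above both for 10, so that the groups did not overlap for 43. Over all genes those shares were 31.3%, 30.3% and 61.6%.

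Of the 21 UBE2 genes 15 were below 0, with a median log2 change of -0.20, an interquartile range of -0.62 to 0.01 and extremes of -0.83 and 0.47. Of the 36 USP genes 28 were below 0, with a median of -0.26, an interquartile range of -0.54 to -0.04 and extremes of -0.95 and 0.72. The median over all genes tested was -0.01. The UBE2 median exceeded that of the USP genes by 0.06, which is less than the spread of this difference between arrays of a group (SD 0.0676), and the medians carry no test because 2 arrays against 2 cannot reach a p of 0.05 by permutation. Taken array by array against the mean of the 0 h arrays, the median UBE2 gene stood at -0.09 and -0.30 on the 24 h arrays and the median USP gene at -0.23 and -0.31. Both families were thus below 0 on each 24 h array, and replicate 2 was the lower array for the UBE2 genes. With that array left out the UBE2 median was -0.09 and the gap between the families 0.15.

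**Figure D1:**
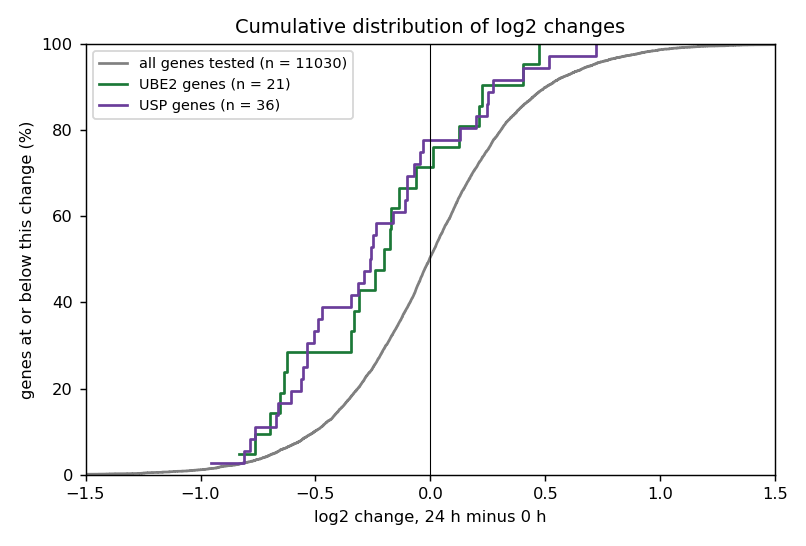
Cumulative share of genes (vertical axis, %) at or below each log2 change, 24 h minus 0 h (horizontal axis), for 21 UBE2 genes, 36 USP genes and all 11030 genes tested. Both family curves lie to the left of the curve of all genes over most of the range and cross each other, with 15 of 21 and 28 of 36 genes below 0.

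All tested genes were split by mean signal into 3 equal groups to set members beside genes of like brightness. In the middle group 6 of 6 UBE2 genes and 15 of 17 USP genes were below 0, against 50.9% of all genes there. In the bright group the counts were 7 of 12 and 4 of 7, against 50.7%, and in the dim group 2 of 3 and 9 of 12, against 50.2%. The count below 0 was most one-sided at middle signal and closer to even among bright members.

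UBE2Z, an E2 that takes ubiquitin and the ubiquitin-like FAT10 from the E1 enzyme UBA6, gave the clearest change. Its normalized log2 signal before irradiation was 9.72 on one array and 9.74 on the other, and afterwards 8.82 and 8.97. The groups did not overlap, and the gap was several times the difference within either group. UBE2Z fell by 0.83 ± 0.11 on the log2 scale, 1.78-fold (limma adjusted p = 0.0496, lower on 2 of 2 arrays). The other 2 detected probes of UBE2Z, fitted as probes of their own, stood at -0.54 ± 0.11 and -0.41 ± 0.16, neither of them past the threshold. UBE2Z lost the call in 7 of 14 alternatives, with any 1 array left out among them. The call was also lost with the replicate block and without a detection filter, where limma called 0 of all genes. With the mean of its kept probes UBE2Z stood at -0.59 and was not called (limma adjusted p = 0.0565), while 336 of all genes were. Its adjusted p ran from 4.24e-04 to 0.238, and its log2 change from -0.91 to -0.59.

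UBE2G1, UBE2K, UBE2D4 and UBE2Q1 had lower 24 h values on their brightest probes and did not pass the test. UBE2G1, which extends chains with cullin-RING ligases, read 11.15 and 11.08 at 0 h and 10.42 and 10.28 at 24 h on its brightest probe. That is a log2 change of -0.76 ± 0.11 (limma adjusted p = 0.0516). Its second probe read 10.25 and 10.49 and then 10.52 and 10.48, a change of 0.13 ± 0.13, so the 2 probes disagree. UBE2K, which builds chains for the proteasome, read 10.47 and 10.33 before and 10.12 and 9.98 after on its brightest probe. That is a change of -0.35 ± 0.12 (limma adjusted p = 0.145). A dimmer UBE2K probe, detected on all 4 arrays, stood at -0.05 ± 0.35. UBE2D4, of the broadly acting UBE2D group, read 8.41 and 8.22 and then 7.79 and 7.45, a change of -0.70 ± 0.16 (limma adjusted p = 0.0791). UBE2Q1, a larger atypical E2, read 9.70 and 9.75 at 0 h and 9.13 and 9.07 at 24 h, a change of -0.62 ± 0.10 (limma adjusted p = 0.0544).

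UBE2G2 and UBE2J2 serve the degradation of misfolded proteins of the endoplasmic reticulum, and the fitted changes of their brightest probes had opposite signs. UBE2J2, which is anchored in that membrane, read 8.50 and 8.55 at 0 h and 8.12 and 7.63 at 24 h, a change of -0.65 ± 0.19 (limma adjusted p = 0.108). Without replicate 2 at 24 h UBE2J2 stood at -0.41, and its lowest value in any setting run was -0.90. The second detected probe of UBE2J2 was at 0.10 ± 0.14. UBE2G2 read 10.66 and 10.51 and then 10.76 and 10.66, a change of 0.13 ± 0.12. Neither passed the test, and the UBE2G2 change was smaller than the difference between its 0 h arrays.

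The E2 enzymes of the damage response were led by UBE2N, the catalytic subunit of the dimer that builds scaffold chains at DNA breaks. UBE2N read 12.04 and 11.97 at 0 h and 11.38 and 11.35 at 24 h, a log2 change of -0.64 ± 0.10 (limma adjusted p = 0.0537). Its arrays within a group differed by less than 0.1 and the groups stood apart, although the adjusted p missed the threshold. The partners of UBE2N lack the active cysteine. UBE2V2 read 11.50 and 11.57 and then 11.68 and 11.41, a change of 0.01 ± 0.14, with groups that overlapped. UBE2V1 read 6.66 and 6.58 and then 6.65 and 7.39, a change of 0.40 ± 0.26 that came from 1 of the 24 h arrays. It stood at 0.03 without replicate 2 at 24 h.

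UBE2A, one of the human counterparts of yeast Rad6, which marks PCNA and histone H2B, read 10.61 and 10.83 at 0 h and 10.34 and 10.48 at 24 h, a change of -0.31 ± 0.13. The probe of its sister gene UBE2B was not detected on any array. UBE2S, which extends chains for the anaphase-promoting complex, was detected on 1 array of each group and stood at -0.24 ± 0.39, so that no direction could be read at this signal. With each array scaled to its 75th percentile, UBE2S stood at 0.25.

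UBE2L6 and UBE2F also serve ubiquitin-like proteins, as UBE2Z does, and had higher values at 24 h that did not pass the test. UBE2L6, which carries the interferon-induced ISG15, read 11.30 and 11.32 at 0 h and 11.44 and 11.61 at 24 h, a change of 0.21 ± 0.11. UBE2F, an E2 of NEDD8, read 11.06 and 11.01 and then 11.21 and 11.31, a change of 0.22 ± 0.11. Both had 24 h arrays above both 0 h arrays, as did 30.3% of all genes, and neither passed (limma adjusted p = 0.289 and 0.241). A dimmer UBE2L6 probe stood at 0.14 ± 0.16, with groups that overlapped. The highest of the E2 changes was that of UBE2E2, an E2 close in sequence to UBE2E1 and UBE2E3. UBE2E2 read 10.57 and 10.68 and then 11.07 and 11.12, a change of 0.47 ± 0.11 (limma adjusted p = 0.0768). Its relative UBE2E3 stood at -0.17 ± 0.12 on its brightest probe and at 0.07 ± 0.12 on a dimmer one detected on all 4 arrays. Another UBE2E3 probe, at 0.68 ± 0.11, was detected on neither 0 h array and was dim at 24 h (5.73 and 5.85). The last, at -0.15 ± 0.24, was detected on 1 array of each group, so neither of these 2 gives a measured change. UBE2H, on its brightest probe, stood at -0.06 ± 0.13 and on its second at 0.51 ± 0.26.

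**Figure D2:**
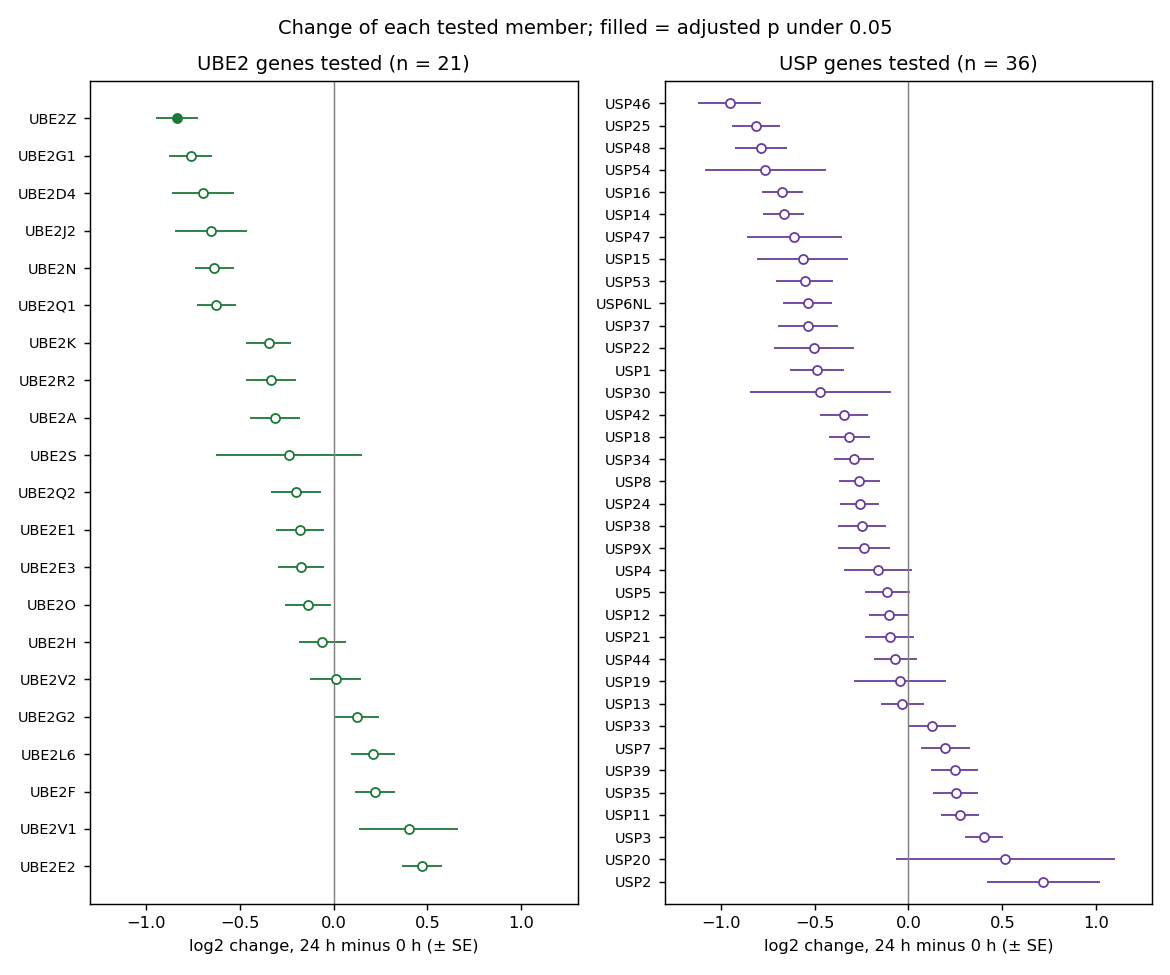
Log2 change (24 h minus 0 h, horizontal axis, point) with its SE (bar) for each of the 21 UBE2 genes (left) and 36 USP genes (right) tested, in order of change. UBE2Z is the filled point, the 1 member past an adjusted p of 0.05, and most points of both panels lie left of 0.

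Among the USP genes none passed the test in limma, with 14 at an unadjusted p under 0.05, 12 lower and 2 higher. The lowest change was that of USP46, a deubiquitinase that works with WDR48 and WDR20. USP46 read 8.67 and 8.69 at 0 h and 7.52 and 7.93 at 24 h, a log2 change of -0.95 ± 0.17 (limma adjusted p = 0.0579). The 24 h arrays differed more from each other than the 0 h arrays, and both lay well below. Its second probe stood at -0.33 ± 0.12. Of its partners, WDR48 stood at -0.04 ± 0.10 and WDR20 at -0.23 ± 0.12. USP25 read 6.73 and 6.50 and then 5.76 and 5.84, a change of -0.81 ± 0.13 (limma adjusted p = 0.0526). The 24 h values of USP25 were near the lowest detected signals of 5.43 to 5.51, and without background correction its change was -0.29. USP54 was detected on 1 of the 2 arrays at 24 h and stood at -0.76 ± 0.32. It was at -0.38 without replicate 2 at 24 h and at -0.25 without background correction, and its lowest value in any setting run was -1.15.

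USP14 and USP5 serve the recycling of ubiquitin. USP14, which sits on the proteasome and trims chains there, read 9.34 and 9.25 at 0 h and 8.59 and 8.67 at 24 h, a change of -0.66 ± 0.11 (limma adjusted p = 0.0537). Its groups stood well apart, and its second probe, at 8.92 and 8.41 and then 8.01 and 7.32, was also lower on both 24 h arrays. USP5, which takes apart free chains, read 11.10 and 11.22 and then 10.97 and 11.12, a change of -0.11 ± 0.12, and its groups overlapped.

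Several USP enzymes act on ubiquitin-marked histones, and they did not move as one. USP16, which removes ubiquitin from histone H2A, read 9.72 and 9.70 at 0 h and 9.11 and 8.97 at 24 h, a change of -0.67 ± 0.11 (limma adjusted p = 0.0539). A second USP16 probe stood at -0.38 ± 0.13. USP48 read 8.51 and 8.43 and then 7.82 and 7.55 on its brightest probe, a change of -0.78 ± 0.14 (limma adjusted p = 0.0577). The 3 other probes of USP48 stood at -0.27 ± 0.15, -0.18 ± 0.17 and 0.40 ± 0.26, so the sign and the size of the USP48 change depend on the probe. With the mean of its kept probes USP48 stood at -0.21. USP22, the histone deubiquitinase of the SAGA complex, read 7.94 and 8.43 and then 7.54 and 7.83, a change of -0.50 ± 0.21. This change was -0.26 without replicate 2 at 0 h and -0.75 without replicate 1 at 0 h. USP3, which acts on H2A and its damage variant, was the other way round, at 8.87 and 8.82 and then 9.25 and 9.25, a change of 0.40 ± 0.10 (limma adjusted p = 0.0865). USP44, linked to H2B and to the spindle checkpoint, stood at -0.07 ± 0.11.

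USP1 removes ubiquitin from PCNA and from the Fanconi protein FANCD2, and its probes gave opposite answers. The brightest read 10.42 and 10.27 at 0 h and 9.99 and 9.72 at 24 h, a log2 change of -0.49 ± 0.15. A dimmer one read 6.23 and 6.27 and then 6.68 and 6.69, a change of 0.44 ± 0.11. Neither passed (limma adjusted p = 0.111 for the gene by its brightest probe and 0.0885 for the dimmer probe in the fit of single probes), although the groups did not overlap on either probe. The mean of both was -0.02, so no direction of USP1 can be given.

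**Figure D3:**
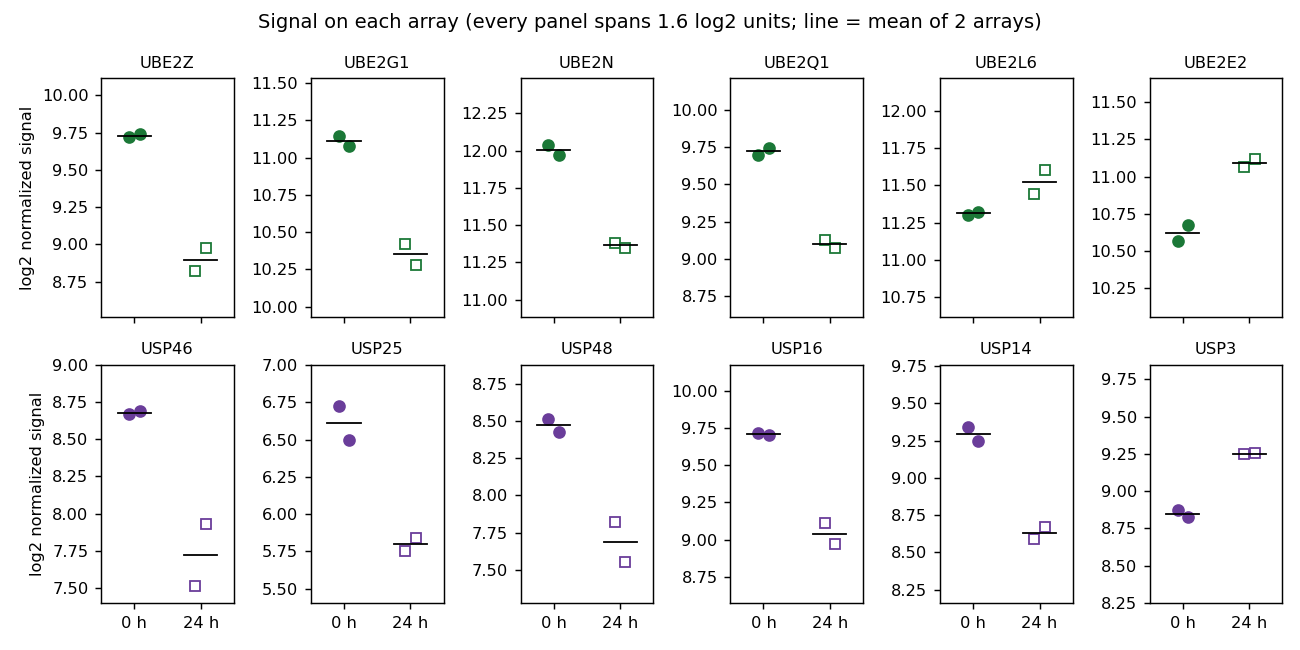
Normalized log2 signal (vertical axis) on each of the 4 arrays for 6 UBE2 genes (top) and 6 USP genes (bottom), with filled circles at 0 h, open squares at 24 h and a line at the mean of 2 arrays; every panel spans the same range of log2 units. The 12 genes were picked for display after their values were seen, so that their groups do not overlap is no count of members (43 of 57 members and 61.6% of all genes did not overlap). UBE2L6, UBE2E2 and USP3 are the genes shown with higher 24 h arrays.

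The fitted changes of USP enzymes that act on p53 or its ligase MDM2 lay on both sides of 0, and none passed the test. USP7, which stabilises MDM2 and p53, read 9.49 and 9.59 at 0 h and 9.63 and 9.85 at 24 h, a change of 0.20 ± 0.13 (limma adjusted p = 0.371). The kept probe of USP2, known to act on MDM2, was detected on both 24 h arrays, at 5.55 and 6.37, and on neither 0 h array. Its fitted change was 0.72 ± 0.30, with an adjusted p of 0.193 in limma, and 0.31 without replicate 2 at 24 h. The bound, at least 1.44-fold higher, describes that probe on these arrays alone. Another USP2 probe ran the other way, detected on 1 of the 0 h arrays, at 6.05, and on neither 24 h array, so no direction of USP2 can be given. USP24 stood at -0.26 ± 0.11, USP4 at -0.16 ± 0.18 and USP15 at -0.56 ± 0.24. A dimmer USP4 probe, detected on all 4 arrays, stood at -0.63 ± 0.17 and did not pass, so the size of the USP4 change depends on the probe. The USP15 value was -0.27 without replicate 2 at 0 h, -0.86 without replicate 1 at 0 h and -0.24 without background correction. USP11, an X-linked enzyme with a role in the repair of breaks, read 9.51 and 9.56 and then 9.80 and 9.81, a change of 0.27 ± 0.10 (limma adjusted p = 0.162). USP47, which controls the level of a repair polymerase, stood at -0.61 ± 0.25. It was at -0.27 without replicate 2 at 24 h, and its lowest value in any setting run was -0.95.

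The remaining named USP genes were spread around a similar range. USP9X, a large X-linked enzyme with many substrates, read 12.68 and 12.63 at 0 h and 12.56 and 12.28 at 24 h, a change of -0.24 ± 0.14, with a second probe at -0.83 ± 0.21. USP39, a splicing factor without protease activity, stood at 0.25 ± 0.13, and USP35 at 0.25 ± 0.12. USP20 was detected on 1 array of each group and stood at 0.52 ± 0.58. USP18, the protease that removes ISG15, was dim at 0 h (5.45 and 5.51) and was detected on neither 24 h array. Its fitted change was -0.32 ± 0.11 (limma adjusted p = 0.141), which gave no bound above 1-fold, and with scaling to the 75th percentile it stood at 0.16. For the pair that acts on ISG15, the conjugating UBE2L6 was thus bright with a change above 0, and the removing USP18 was at the edge of detection.

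A further 17 tested members, 4 UBE2 and 13 USP genes, had changes between -0.55 and 0.13, with 16 of them below 0 and the lowest limma adjusted p at 0.0828. The lowest change was that of USP53, whose probe was detected on both 0 h arrays and on neither 24 h array. Its fall is known as a bound, at least 1.15-fold on these arrays. USP6NL is also among the 17. It is named after USP6 and is a GTPase-activating protein, and the USP median was -0.26 without it. The other 27 members, 7 UBE2 and 20 USP genes, were not detected on 2 arrays and entered no test. They include all 9 USP17L genes on the arrays, a multigene family of near-identical copies, and 8 pseudogenes are counted among the 84 members.

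Where a member had 2 or more detected probes, the probes gave the same sign in most cases. This held for 14 of 20 such genes, with all probes below 0 for 12 genes and all above 0 for 2, and failed for 6 (UBE2E3, UBE2G1, UBE2H, UBE2J2, USP1 and USP48). Counted by probe, 59 of 82 kept probes were below 0, 20 of 32 for UBE2 and 39 of 50 for USP genes. Probes of a gene share its transcripts and are no replicates, and which isoforms each probe reads was not tested.

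**Figure D4:**
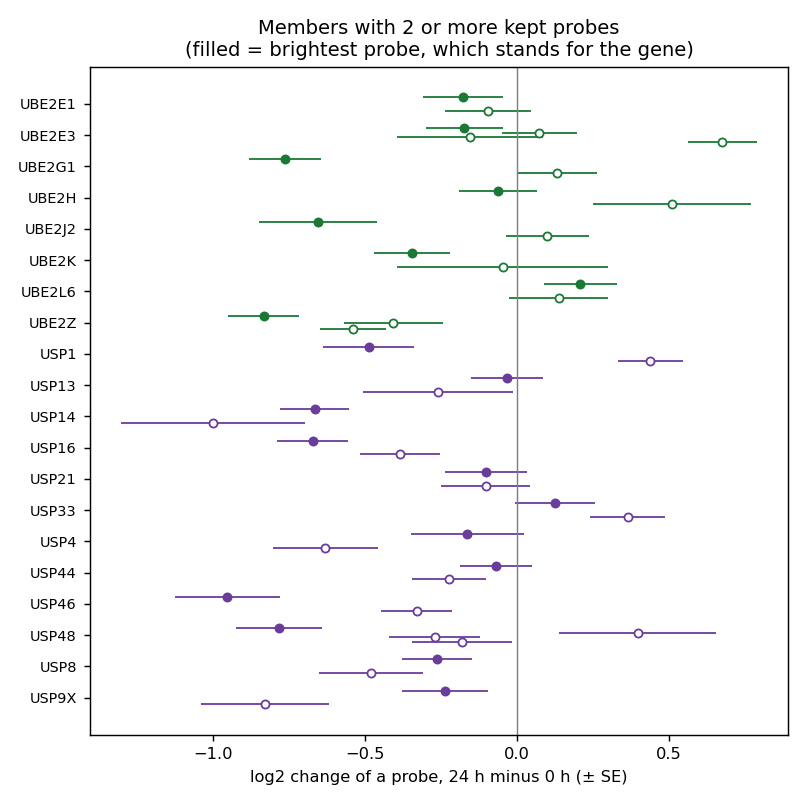
Log2 change of each kept probe (24 h minus 0 h, horizontal axis, point) with its SE (bar) for the 20 members with 2 or more kept probes; the filled point is the brightest probe, which stands for the gene. UBE2E3, UBE2G1, UBE2H, UBE2J2, USP1 and USP48 have probes on both sides of 0.

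The stretches before the annotated starts of 4 members are shown because these had the lowest and the highest change of each family among genes detected on all 4 arrays. Each is the 250 bases upstream of the start, from RefSeq on GRCh38.p14, written 5′ to 3′ on the strand of the gene, with capitals for matches to any of 5 motifs searched on both strands. The motifs were the CCAAT box (CCAAT), the GC box (GGGCGG), an ETS core (CCGGAAG), the E-box (CACGTG) and the TATA box (TATAAA), and overlapping GC boxes run together in capitals.
UBE2Z (chr17:48908157-48908406, + strand, lowest UBE2 change): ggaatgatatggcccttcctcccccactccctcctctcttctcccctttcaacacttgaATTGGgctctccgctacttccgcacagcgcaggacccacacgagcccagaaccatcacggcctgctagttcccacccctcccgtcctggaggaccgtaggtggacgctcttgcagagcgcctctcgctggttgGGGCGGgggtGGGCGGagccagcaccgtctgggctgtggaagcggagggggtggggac
UBE2E2 (chr3:23202848-23203097, + strand, highest UBE2 change): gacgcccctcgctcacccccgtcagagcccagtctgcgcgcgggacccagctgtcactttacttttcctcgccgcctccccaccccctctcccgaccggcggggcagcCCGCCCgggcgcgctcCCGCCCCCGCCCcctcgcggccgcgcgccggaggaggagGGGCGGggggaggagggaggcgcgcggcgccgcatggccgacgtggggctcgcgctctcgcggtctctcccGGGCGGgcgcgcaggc
USP46 (chr4:52659302-52659551, - strand, lowest USP change): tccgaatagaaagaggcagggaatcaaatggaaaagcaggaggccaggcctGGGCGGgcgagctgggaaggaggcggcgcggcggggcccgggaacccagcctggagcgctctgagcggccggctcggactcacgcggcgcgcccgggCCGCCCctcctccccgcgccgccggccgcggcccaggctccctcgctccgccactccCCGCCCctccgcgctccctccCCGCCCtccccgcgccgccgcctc
USP3 (chr15:63504343-63504592, + strand, highest USP change): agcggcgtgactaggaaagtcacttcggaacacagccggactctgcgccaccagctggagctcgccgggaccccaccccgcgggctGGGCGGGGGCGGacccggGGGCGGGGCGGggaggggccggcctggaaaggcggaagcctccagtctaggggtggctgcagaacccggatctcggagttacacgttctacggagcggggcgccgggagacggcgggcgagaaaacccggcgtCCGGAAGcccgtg

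All 4 stretches hold GC boxes, whichever way the gene went, and UBE2Z adds a CCAAT box and USP3 an ETS core. Promoters were found for 18 of the 21 UBE2 and 29 of the 36 USP genes tested. A GC box was in 15 of the 18 and 23 of the 29, against 67.7% of 8884 tested genes with a promoter and 42.3% of all 27303 promoters in the table. Among members below 0 it was in 28 of 34 and among those above 0 in 10 of 13. The ETS core was in 4 of 18 and 8 of 29, against 15.6% of tested genes and 8.82% of all promoters, and the CCAAT box in 4 of 18 and 10 of 29, against 35.7% and 33%. The E-box was in 0 of 18 and 1 of 29 (9.11% and 6.49%), and the TATA box in 1 of each (5.32% and 11.1%). The median share of G and C was 71.6% for UBE2 and 70.4% for USP genes, against 65.2% over tested genes. A match is a description of letters in this window.

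Across 6 lists of other ubiquitin pathway genes, which cover the pathway in part, 2 of 59 tested genes were called. That is near the 2.28% of all genes and is no result about the pathway. BIRC6, a giant protein that joins an E2 domain to an inhibitor of apoptosis, read 8.38 and 8.32 at 0 h and 7.34 and 7.53 at 24 h and fell by 0.92 ± 0.12 on the log2 scale (limma adjusted p = 0.0481). It was the 1 of 8 E2 genes without a UBE2 symbol that passed, and 4 of the 8 were above 0. UBE3B, a HECT-type E3 ligase, read 7.17 and 7.34 and then 6.35 and 6.14 and fell by 1.01 ± 0.13 (limma adjusted p = 0.0489), the 1 of 16 partner proteins and ligases that passed, with 5 above 0. Like UBE2Z, both lost the call with any 1 array left out. Without background correction the log2 change of BIRC6 was -0.58 and that of UBE3B -0.45, and both stayed called.

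None of the 6 E1 enzymes tested passed, and 4 were above 0. UBA6, the E1 that charges UBE2Z, stood at 0.001 ± 0.127 on the log2 scale, and UBA1, the main E1 of ubiquitin, at 0.06 ± 0.10. Among 26 deubiquitinases of other families none passed in limma, and 9 were above 0, with a median of -0.07. ATXN3, a deubiquitinase of the Josephin type, read 8.62 and 8.58 at 0 h and 9.27 and 9.32 at 24 h, a change of 0.70 ± 0.10 that missed the threshold (limma adjusted p = 0.051). UBB, the 1 of 4 ubiquitin genes named on the arrays, stood at -0.15 ± 0.12.

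The number of members called moved with the processing. A limma adjusted p under 0.06 was reached by 4 UBE2 genes, UBE2Z among them, and by 5 USP genes, where all genes gave 6.28%. That cut lies just above the 0.0579 of USP46, with the next member at 0.0768, so its count is no result about the families. Under 0.1 there were 6 UBE2 and 8 USP genes, where all genes gave 18.2%. With probes detected on all 4 arrays limma called 6 UBE2 genes (5 lower) and 6 USP genes (6 lower) among 1370 of 9619 genes. With eBayes set to trend and robust it called 8 UBE2 (7 lower) and 10 USP genes (9 lower) among 2522 of 11030. In each of these fits UBE2E2 was the called UBE2 gene that rose. The share of called genes grew for all genes as well, and the difference between families or from all genes was not tested.

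**Figure D5:**
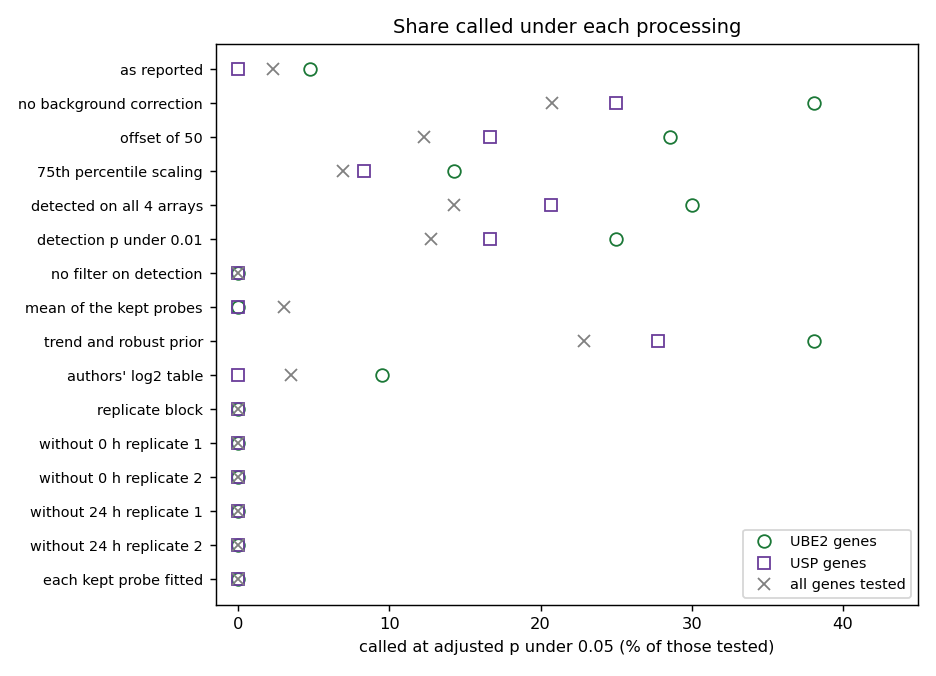
Share of genes called at an adjusted p under 0.05 (horizontal axis, % of those tested) under each processing (vertical axis) for UBE2 genes (circles), USP genes (squares) and all genes (crosses); in the last line the unit is the probe. Shares are 0 for the families and for all genes where 1 array is left out, with the replicate block, without a detection filter and in the fit of single probes.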

How the data were processed

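The deposited table of non-normalized values gives, per the file headers, a mean bead signal per probe (a linear intensity, not normalized) and its detection p-value on each of 4 arrays. The authors' deposited table of log2 values covers 34466 probes; limma is named per the submitters' processing notes, without version or steps. Compared array by array with neqc values it correlated at 0.999979 across probes and differed by at most 0.0563, with column medians of 5.35 to 5.36, so it was read as neqc-type log2 values with genes not centred; the rule that chose its probes is unknown.

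Signals were processed with neqc of limma 3.58.1 in R 4.3.3 (background from detection p-values, offset 16, quantile normalization). Probes with a detection p under 0.05 on at least 2 arrays were kept (20361 of 47217). The platform annotation names 1 gene for 26358 probes, more than 1 for 3 and no gene for 20856; 26325 Entrez identifiers were found in RefSeq (GRCh38.p14), and 0 symbols changed. The brightest kept probe stood for each of 11030 genes, fitted together with lmFit and eBayes (24 h against 0 h, no block, two-sided p-values, Benjamini-Hochberg over all genes, threshold 0.05). The prior had 2.56 degrees of freedom beside 2 residual ones. A fold against a group not detected on either array is a bound, taking per array whichever is higher, the lowest detected signal or the probe's own. Fitting was tested on simulated data. The number of arrays limits the precision.

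Members, lists, tests and alternatives were chosen with earlier results of these data known. Named were members past the threshold, the 6 lowest and 6 highest changes of each family, and members with probes of opposite sign. Members with a textbook role in the damage response or p53 control were named too. So were other pathway genes past the threshold or among the 3 largest changes. USP6NL and the partners WDR48, WDR20, UBA6, UBA1 and UBB were named for their function, and USP53 for its detection, after their values were seen.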

Additional observations from a re-analysis of the deposited data

How the results depend on the processing

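Calls moved with the processing. Called UBE2 genes numbered 8 without background correction, 6 with an offset of 50, 3 with 75th percentile scaling, 6 with detection on all 4 arrays, 5 with a detection p under 0.01, 8 with the trend and robust prior, 2 in the authors' log2 table, and 0 without a filter, with the mean of the kept probes and with each kept probe fitted (the last chosen after seeing the data). In the same order up to the prior, USP genes called numbered 9, 6, 3, 6, 5 and 10, with 0 elsewhere. All genes called numbered 2288, 1355, 762, 1370, 1240 and 2522, with 388 in the authors' table, 336 with the mean of the kept probes, and 0 without a filter and with each kept probe fitted. Where limma called 0 genes, 1831 to 4103 had an unadjusted p under 0.05. Fewer genes tested is part of the construction of the stricter filters; the cause of the other moves was not tested. With any 1 array left out, 0 were called in each set, the lone array being assumed to vary like the other group. With the replicate block 0 UBE2, 0 USP and 0 of all genes were called. Deviations of arrays with the same replicate number correlated at 0.154 across genes, and the labels give no shared origin.

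The USP median was -0.18 without background correction, -0.15 with 75th percentile scaling, -0.15 without a filter, and -0.31 to -0.23 with 1 array left out. The UBE2 median was -0.297 to -0.0857 with 1 array left out, and the gap between families 0.0142 to 0.146. The 75th percentile scaling moved the median of all genes to 0.11, and the families stood 0.24 and 0.26 below it; 570 called genes were higher and 192 lower, against 149 and 102. Signs turned for UBE2S (0.25) and USP18 (0.16) with that scaling, for UBE2E3 (0.11) and UBE2H (0.23) with the mean of the kept probes, and with 1 array left out for UBE2V2 (-0.127 to 0.147, turned without replicate 1 of either group), USP4 (-0.367 to 0.0428, without 24 h replicate 1), UBE2H (-0.172 to 0.0498), UBE2S (-0.794 to 0.314) and USP20 (-0.227 to 1.26), the last 3 without 24 h replicate 2. None of these 7 genes was called in any setting run. Of all values of named genes under alternatives, 492 kept direction and side of the threshold, 71 came to pass it and 19 no longer passed.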
